A study of Homo sapiens with 7 samples.

Results

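This report describes the interferon response genes, the set of genes that cells switch on when interferon reaches them, on 7 microarrays of human fibroblasts. The set holds 44 listed genes. For each gene the brightest of its probe sets was taken among those that the array's annotation assigns to 1 gene. A probe set of this kind was found for 43 of the 44 genes, STAT2 being the exception, and 42 reached a signal of 100 on at least 1 array and were tested among 12726 genes. BST2, which encodes tetherin, the protein that holds budding virus at the cell surface, stayed below 100 on every array (its highest signal was 48.6, on control 1) and is therefore flagged and given no test.

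Type I interferons are secreted proteins that bind the IFNAR1 and IFNAR2 receptor chains. The attached kinases JAK1 and TYK2 then phosphorylate STAT proteins, and a complex that contains STAT2 and IRF9 enters the nucleus and binds the interferon-stimulated response element (ISRE) before its target genes. The products of these genes cut or sequester viral RNA, block virus entry, tag proteins with the ubiquitin-like protein ISG15, raise the display of peptides to T cells and feed back on the pathway. Fibroblasts are a classic source of interferon beta and respond to it themselves.

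Each array held RNA from a normal dermal fibroblast line at passage 10, and all 7 arrays carry the name of the same cell line. There were 2 control arrays, whose labels name no treatment, and 1 array each of fibroblasts overexpressing progerin, the truncated lamin A of Hutchinson-Gilford progeria that keeps its farnesyl group, and of fibroblasts overexpressing wild-type prelamin A, the farnesylated precursor of lamin A. Each of these was also measured after 10 nM of the farnesyltransferase inhibitor (FTI) L-744832, given for 48 h, and prelamin A was measured together with overexpressed ZMPSTE24, the protease that completes its processing. The study's methods give lentiviral vectors with a CMV promoter, sorting of transduced cells for GFP, and a GFP lentivirus in the control of its growth curves. The labels do not say whether the control arrays carried a lentivirus, whether they were separate cultures, or whether the untreated arrays received the solvent. For the array labelled prelamin A with FTI, the title mentions FTI alone, and prelamin A comes from its other labels. The study compared these arrays to find genes that change with both progerin and prelamin A. Its filter also required a return towards control with FTI in both lines and with ZMPSTE24 in prelamin A cells.

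The arrays differed little in overall signal, with medians of 64.9 to 77.0 over all probe sets and 43.0% to 45.1% of probe sets at 100 or more. All 10 fibroblast markers were at 100 or more on every array, while PTPRC, the pan-leukocyte marker, never passed 55.5 and CDH5, an endothelial cadherin, never passed 35.7. Of the 9 immune cell markers measured, 1 to 3 reached 100, and their summed signal ran from 557 on control 2 to 1043 on the array labelled ZMPSTE24. Among them CD14 was 87.2 and 55.3 in the controls, 198 to 329 on the 4 arrays labelled progerin or prelamin A and 575 on the array labelled ZMPSTE24. TEK, an endothelial receptor, was 23.5 and 2.19 in the controls and 167 to 344 on the other 5 arrays. The summed signal of 5 markers of dividing cells (MKI67, TOP2A, CCNB1, CDK1 and BIRC5) was 9282 on control 1 and 5990 on control 2, 8634 and 8197 with progerin without and with FTI, 5248 and 7555 on the arrays labelled prelamin A without and with FTI, and 5895 on the array labelled ZMPSTE24. The 3′ to 5′ ratio of ACTB, a measure of RNA degradation, was lowest on control 2 (1.06) and highest on the array labelled prelamin A (1.62), with 1.24 on control 1 and 1.50 on the array labelled ZMPSTE24. The part of other cell types, cell division and RNA quality in the results below was not tested. For ZMPSTE24 itself, the only probe set of 1 gene read 4841 on control 1 and 4973 on control 2, 5073 and 5195 with progerin without and with FTI, 6120 and 5180 on the arrays labelled prelamin A without and with FTI, and 5779 on the array labelled ZMPSTE24, which thus showed no excess over the array labelled prelamin A. LMNA, the gene from which both lamins are made, stood on its brightest probe set at 9300 on control 1, 14029 on control 2, 16289 and 15240 with progerin without and with FTI, 8498 and 9814 on the arrays labelled prelamin A without and with FTI, and 9488 on the array labelled ZMPSTE24. On its 4 brightest probe sets the array labelled prelamin A lay below both controls and thus showed no excess of LMNA, while 2 dim ones, at 389 or less on every array, put it above both. The progerin array lay above both controls on 3 of the 6 LMNA probe sets. On the brightest of them its 16289 exceeded control 2 by less than the 2 controls differed from each other, so these signals do not settle the progerin label. The study's immunoblot for the flag tag included fibroblasts transduced with tagged progerin or prelamin A. The study does not say whether these were the cultures of the arrays. The arrays labelled prelamin A or ZMPSTE24 are called by their labels below, which the signals of LMNA and ZMPSTE24 do not bear out. Whether the probes of either gene lie in the part of the transcript that the vectors carry was not examined here.

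The core of the ISRE (GAAA, any 2 bases, GAAA) was searched on both strands in the 250 bases before each RefSeq start site (GRCh38.p14), and was present in 1061 of 35116 promoter windows (3.02%). Among the interferon response genes it was present in 28 of 48 windows (58.3%), belonging to 25 of the 36 genes that have a window. Other lists of the interferon pathway, described below, also held the core. It was in 45.7% of the windows of further interferon-induced genes and 38.9% of those of antigen presentation. The share was 9.38% for ligands, receptors and JAK-STAT signalling and 8.33% for nucleic acid sensing. The STAT dimer site (TTC, any 3 bases, GAA), which can overlap an ISRE, was in 6.57% of all windows and in 29.2% of the windows of the set. IRF7, IFIT2, IFITM2, OASL, USP18, MX2, OAS2 and TRIM22 have no window in the table. The stretches below are shown for genes whose signals carry the comparisons that follow, on the strand of the gene from 5′ to 3′, with every ISRE core in capitals. Cores read on the opposite strand appear as TTTC, 2 bases and TTTC. A match describes the letters and does not make a binding site.
ISG15 (chr1:1013366-1013417, + strand): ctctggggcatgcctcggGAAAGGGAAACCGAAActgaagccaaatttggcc
IFI6 (chr1:27672258-27672366, - strand): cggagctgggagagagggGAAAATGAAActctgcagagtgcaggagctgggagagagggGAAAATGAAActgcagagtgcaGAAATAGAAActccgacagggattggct
IFI44 (chr1:78649753-78649798, + strand): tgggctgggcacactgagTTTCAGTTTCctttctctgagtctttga
RSAD2 (chr2:6877614-6877659, + strand): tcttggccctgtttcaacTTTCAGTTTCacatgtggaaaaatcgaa
DDX60 (chr4:168318778-168318858, - strand): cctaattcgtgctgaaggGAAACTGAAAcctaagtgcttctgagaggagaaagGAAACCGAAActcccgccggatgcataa
PARP12 (chr7:140062952-140062979, - strand): tcgccggcccggggccgcTTTCGGTTTC
IFIT1 (chr10:89392489-89392547, + strand): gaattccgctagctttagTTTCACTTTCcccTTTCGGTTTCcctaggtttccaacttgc
IFITM1 (chr11:313982-314027, + strand): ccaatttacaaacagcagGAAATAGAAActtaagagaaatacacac
IFI27 (chr14:94110610-94110668, + strand): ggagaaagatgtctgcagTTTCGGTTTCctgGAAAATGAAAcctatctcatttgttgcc
EPSTI1 (chr13:42992264-42992309, - strand): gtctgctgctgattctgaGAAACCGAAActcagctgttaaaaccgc
IFI6 has 3 cores in this stretch, and IFIT1, DDX60 and IFI27 have 2 each, those of IFI27 lying on opposite strands, while the 2 cores of ISG15 overlap. In PARP12 the core ends directly at the start site. No core was found in any window of CMPK2, OAS1, XAF1 or IFI35, which are also described below.

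The interferon response genes stood highest on control 1 and, after it, on the array labelled ZMPSTE24. Their median level relative to each gene's mean over the 7 arrays, on the log2(signal + 16) scale, was 0.88 on control 1, -0.10 on control 2, -0.09 and -0.15 with progerin without and with FTI, -0.57 and -0.47 on the arrays labelled prelamin A without and with FTI, and 0.52 on the array labelled ZMPSTE24. All genes tested had medians between -0.015 and 0.025. Control 1 held the highest signal of 28 of the 42 genes (17.4% of all genes tested) and the array labelled ZMPSTE24 that of 11 (11% of all genes). These were the 2 highest arrays for 23 of the 42 genes (5.43% of all genes). The lowest signal fell on the array labelled prelamin A for 15 (2040 of all 12726 genes) and on the array labelled prelamin A with FTI for 10 (1742 of all genes). In such bulk RNA, fewer cells that express a gene and less of its RNA in each cell cannot be told apart.

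**Figure D1:**
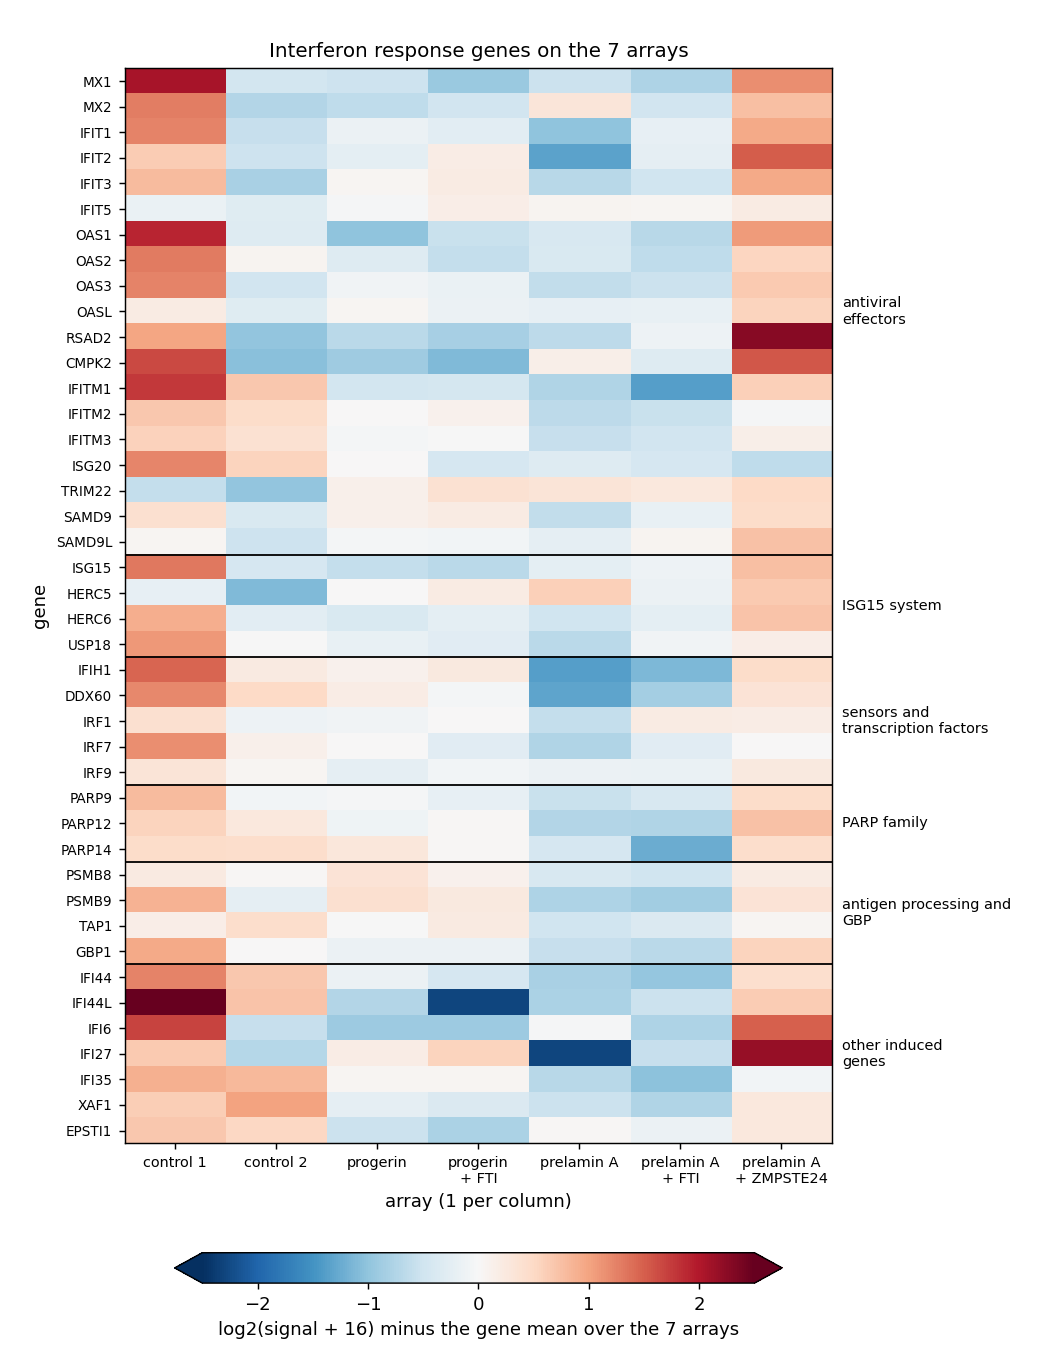
Signal of each of the 42 genes tested (rows, grouped by role) on the 7 arrays (columns), as log2(signal + 16) minus the gene's mean over the 7 arrays; red is above the mean, blue below, and the scale ends at 2.5 in either direction. Control 1 and the array labelled ZMPSTE24 are red for most rows, control 2 is mostly pale or blue, and both arrays labelled prelamin A are blue for most rows.

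The 2 controls did not match for these genes. Control 1 was higher than control 2 for 40 of the 42 genes, XAF1 and TAP1 being the exceptions, with a median log2 difference of 0.91 against 0.019 for all genes tested. It was over 2-fold higher for 20 of the 42 genes (4.97% of all genes) and over 2-fold lower for 0 of 42 (4.31% of all genes). The 2 controls are the only replicated condition, so their difference carries no test. It also supplies the single residual degree of freedom of the fit over 6 conditions, which gives genes that lie far apart between the controls a wide error in every comparison. The other spread in that fit is borrowed from all genes, and each lone array is taken to vary as the controls do. Comparisons with the controls are therefore given below against each control as well as against their mean.

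Among the antiviral effectors, control 1 was the higher control for all 19 genes tested and over 2-fold higher for 11. MX1 and MX2 are dynamin-like GTPases that form rings around viral nucleocapsids, and they lie next to each other on chromosome 21. MX1 read 2415 on control 1 and 409 on control 2, 393 and 294 with progerin without and with FTI, 386 and 327 on the arrays labelled prelamin A without and with FTI, and 1298 on the array labelled ZMPSTE24. MX2 read 658 and 152 on controls 1 and 2, 164 and 184 on the progerin arrays, 328 and 185 on the arrays labelled prelamin A and 456 on the array labelled ZMPSTE24. Both genes were highest on control 1 and second highest on the array labelled ZMPSTE24, and for MX1 the other 5 arrays lay within 294 to 409.

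The IFIT1 protein binds viral RNA that lacks the cap methylation of host messages, and the related genes IFIT2, IFIT3, IFIT1 and IFIT5 form a cluster on chromosome 10. IFIT1 stood at 3798 and 1072 in the controls, 1447 and 1340.4 with progerin, 791 and 1388 on the arrays labelled prelamin A, and 3129.6 on the array labelled ZMPSTE24. IFIT2 had signals of 679 and 297 in the controls, 362 with progerin, 497 with progerin and FTI, 162 on the array labelled prelamin A, 369.6 when FTI was added to it, and 1275 on the array labelled ZMPSTE24. IFIT3 read 4067 and 1317 on controls 1 and 2, 2401 and 2703 on the progerin arrays, 1428 and 1653 on the arrays labelled prelamin A and 4499.8 on the array labelled ZMPSTE24. Prelamin A gave the lowest IFIT1 and IFIT2 signals and control 2 the lowest IFIT3 signal, while IFIT2 and IFIT3 were highest on the array labelled ZMPSTE24. IFIT5 varied least, from 1295 to 1867.

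OAS1, OAS2 and OAS3 sense double-stranded RNA and make the oligoadenylates that switch on RNase L, and OAS1, OAS3 and OAS2 are neighbours on chromosome 12. OAS1 stood at 343 and 60.8 in the controls, 32.0 and 49.5 with progerin, 56.5 and 43.4 on the arrays labelled prelamin A, and 184 on the array labelled ZMPSTE24. OAS2 read 615 and 251 on controls 1 and 2, 189 and 153 on the progerin arrays, 180.1 and 149 on the arrays labelled prelamin A and 356 on the array labelled ZMPSTE24. OAS3 had signals of 1112 and 327 in the controls, 435 with progerin, 413 with progerin and FTI, 295 on the array labelled prelamin A, 315 when FTI was added to it, and 738 on the array labelled ZMPSTE24. Control 1 was the highest and the array labelled ZMPSTE24 the second highest for all 3 genes. OASL, a relative without that enzyme activity, stayed between 62.4 and 127.

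RSAD2 encodes viperin, which makes a nucleotide that ends viral RNA chains, and CMPK2, a mitochondrial nucleotide kinase, overlaps RSAD2 on chromosome 2. RSAD2 read 103 on control 1 and 14.2 on control 2, 21.6 and 17.8 with progerin without and with FTI, 22.3 and 38.9 on the arrays labelled prelamin A without and with FTI, and 273 on the array labelled ZMPSTE24. CMPK2 stood at 639 and 85.2 in the controls, 96.8 and 81.3 with progerin, 213 and 152 on the arrays labelled prelamin A, and 598 on the array labelled ZMPSTE24. RSAD2 passed 100 only on control 1 and the array labelled ZMPSTE24. CMPK2 was at 598 or more on these same arrays and at 213 or less on the other 5.

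IFITM1, IFITM2 and IFITM3 encode membrane proteins that hinder fusion of virus with the cell, and they are neighbours on chromosome 11. IFITM1 read 11091 and 5177 on controls 1 and 2, 2361 and 2406 on the progerin arrays, 1921 and 1234 on the arrays labelled prelamin A and 4909 on the array labelled ZMPSTE24. IFITM2 stood at 20108 and 17480 in the controls, 12792 and 13689 with progerin, 7997 and 8551 on the arrays labelled prelamin A, and 12363 on the array labelled ZMPSTE24. IFITM3 had signals of 22338 and 19696 in the controls, 14625 with progerin, 14995 with progerin and FTI, 10103 on the array labelled prelamin A, 10852 when FTI was added to it, and 16600 on the array labelled ZMPSTE24. Both controls were above the 4 arrays labelled progerin or prelamin A for all 3 genes, and the arrays labelled prelamin A were below the progerin arrays. These genes are close copies of each other, so their probes may share transcripts and the 3 values are uncertain as separate measurements.

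ISG20, an exonuclease that degrades single-stranded RNA, and TRIM22, a ubiquitin ligase, departed from the rest. ISG20 read 297 and 182 on controls 1 and 2, 121 and 84.2 on the progerin arrays, 92.4 and 85.2 on the arrays labelled prelamin A and 70.3 on the array labelled ZMPSTE24. TRIM22 read 5586 on control 1 and 4282 on control 2, 9196 and 10984 with progerin without and with FTI, 10541 and 10169 on the arrays labelled prelamin A without and with FTI, and 11890 on the array labelled ZMPSTE24. ISG20 was highest in the controls and lowest on the array labelled ZMPSTE24. TRIM22 was lowest in the controls, and the 5 other arrays were all at 9196.5 or above. SAMD9 and SAMD9L, a pair of neighbouring genes on chromosome 7 whose products restrict poxviruses, ranged from 677 to 1453 and from 770.5 to 1854, both highest on the array labelled ZMPSTE24.

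In the ISG15 system, ISG15 is the ubiquitin-like tag, HERC5 the main ligase that attaches it, HERC6 a close relative, and USP18 the protease that removes it and dampens receptor signalling. ISG15 stood at 5786 and 1709.7 in the controls, 1508 and 1438 with progerin, 1922 and 2094 on the arrays labelled prelamin A, and 3867 on the array labelled ZMPSTE24. HERC6 read 589 and 251 on controls 1 and 2, 231 and 255 on the progerin arrays, 209.8 and 253 on the arrays labelled prelamin A and 509 on the array labelled ZMPSTE24. USP18 had signals of 335 and 149 in the controls, 129 with progerin, 119.8 with progerin and FTI, 87.6 on the array labelled prelamin A, 139.5 when FTI was added to it, and 169 on the array labelled ZMPSTE24. ISG15, HERC6 and USP18 were all highest on control 1 and second highest on the array labelled ZMPSTE24. For ISG15 and HERC6 the other 5 arrays stayed at 2094 or less and at 255 or less. HERC5 was lowest on control 2 (34.1) and highest on the array labelled ZMPSTE24 (154), with 146 on the array labelled prelamin A.

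The sensors and transcription factors were lowest on the array labelled prelamin A, apart from IRF9. IFIH1 encodes MDA5, the receptor for long double-stranded RNA, and DDX60 a helicase of the same broad family. IFIH1 had signals of 513 and 212 in the controls, 193 with progerin, 215 with progerin and FTI, 58.9 on the array labelled prelamin A, 73.0 when FTI was added to it, and 251 on the array labelled ZMPSTE24. DDX60 stood at 1005 and 605 in the controls, 486 and 409.6 with progerin, 161 and 229 on the arrays labelled prelamin A, and 542 on the array labelled ZMPSTE24. Both genes had their lowest signals on the arrays labelled prelamin A without and with FTI, below every other array. IRF7, the factor that amplifies interferon production, came next. IRF7 read 519 and 244 on controls 1 and 2, 222 and 179.5 on the progerin arrays, 125 and 179 on the arrays labelled prelamin A and 223 on the array labelled ZMPSTE24. IRF7 was highest on control 1 and lowest on the array labelled prelamin A, and the other 5 arrays lay between 179 and 244. IRF1, a broad activator of interferon targets, ranged from 169 on the array labelled prelamin A to 351 on control 1. IRF9, the DNA-binding partner of the interferon-activated STAT complex, ranged from 1221 with progerin to 1775 on control 1.

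PARP9, PARP12 and PARP14 belong to the family of ADP-ribosyltransferases, several of which are interferon-induced. PARP12 read 710.3 on control 1 and 579 on control 2, 446 and 492 with progerin without and with FTI, 282 and 280.3 on the arrays labelled prelamin A without and with FTI, and 810 on the array labelled ZMPSTE24. PARP12 was highest on the array labelled ZMPSTE24 and lowest on both arrays labelled prelamin A. PARP9 ranged from 719 to 1862 and PARP14 from 86.3 to 312, each with its low end on a array labelled prelamin A.

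PSMB8 and PSMB9 are catalytic subunits of the immunoproteasome and TAP1 is a chain of the peptide transporter that loads MHC class I, and these 3 genes are adjacent on chromosome 6. GBP1 is a GTPase that coats intracellular pathogens. PSMB9 stood at 1259 and 579 in the controls, 901 and 809.7 with progerin, 391 and 368 on the arrays labelled prelamin A, and 871 on the array labelled ZMPSTE24. PSMB9 was over 2-fold higher on control 1 than on control 2, and its arrays labelled prelamin A were its lowest. All 4 genes had their lowest signals on the arrays labelled prelamin A, with PSMB8 from 815 to 1484, TAP1 from 486 to 947 and GBP1 from 1260.4 to 3898.

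The remaining genes are used as markers of the response more than for a settled function. IFI44 had signals of 1781 and 1195 in the controls, 664 with progerin, 551 with progerin and FTI, 414 on the array labelled prelamin A, 372 when FTI was added to it, and 1000.5 on the array labelled ZMPSTE24. IFI44L read 655 and 121 on controls 1 and 2, 34.4 and 1.17 on the progerin arrays, 32.4 and 41.6 on the arrays labelled prelamin A and 115 on the array labelled ZMPSTE24. IFI6 stood at 1545 and 309.7 in the controls, 241 and 242 with progerin, 455 and 267 on the arrays labelled prelamin A, and 1340.3 on the array labelled ZMPSTE24. IFI44 and IFI44L, neighbours on chromosome 1, were higher in both controls than on any of the 4 arrays labelled progerin or prelamin A. IFI6, a mitochondrial and endoplasmic reticulum protein, was high on control 1 and the array labelled ZMPSTE24 and at 455 or less elsewhere.

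IFI27 read 179.7 on control 1 and 59.3 on control 2, 124 and 167 with progerin without and with FTI, 9.36 and 67.2 on the arrays labelled prelamin A without and with FTI, and 544 on the array labelled ZMPSTE24. IFI35 read 870 and 819 on controls 1 and 2, 479.9 and 479 on the progerin arrays, 280.3 and 218 on the arrays labelled prelamin A and 437 on the array labelled ZMPSTE24. IFI27, a small mitochondrial protein, was under 100 on the arrays labelled prelamin A without and with FTI and on control 2, and peaked on the array labelled ZMPSTE24. IFI35, a partner of NMI, was similar in the 2 controls and lower on all 5 other arrays. XAF1, an antagonist of the apoptosis inhibitor XIAP, and EPSTI1 behaved in the same way. XAF1 stood at 1299.8 and 1718 in the controls, 718 and 654 with progerin, 579 and 491 on the arrays labelled prelamin A, and 1011 on the array labelled ZMPSTE24. EPSTI1 had signals of 613 and 555 in the controls, 257 with progerin, 212 with progerin and FTI, 389 on the array labelled prelamin A, 344 when FTI was added to it, and 461 on the array labelled ZMPSTE24. Both controls were above all 5 other arrays for XAF1 and EPSTI1.

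Progerin against control addressed whether the truncated lamin altered these genes. Here and in the comparisons that follow, a call needed more than a 2-fold difference on the log2(signal + 16) scale together with an unadjusted p below 0.05 in limma, and the 16 added to each signal shrinks the differences of dim genes. Changes are given on the log2 scale with their standard error (SE). Of the 42 genes, 4 were called lower (2.04% of all genes tested) and 0 higher (3.76%): EPSTI1 fell by 1.13 (SE 0.32, unadjusted p = 0.0206 in limma), IFITM1 fell by 1.68 (SE 0.55, unadjusted p = 0.0327), XAF1 fell by 1.04 (SE 0.36, unadjusted p = 0.038) and IFI44 fell by 1.12 (SE 0.40, unadjusted p = 0.0414). For each of these 4 genes progerin lay below both controls. No adjusted p was under 0.05, the smallest in the set being 0.588. Which control was used mattered for the rest. The median log2 difference of the 42 genes was -0.59 against the mean of the controls (0.0072 for all genes), -0.95 against control 1 alone and -0.13 against control 2 alone. Against control 1 alone 21 genes were over 2-fold lower (539 of all 12726 genes) and 0 higher (819). Against control 2 alone 4 were over 2-fold lower (440 of all genes) and 2 over 2-fold higher (840). There was no test in either case because no residual degree of freedom is left. Progerin lay below both controls for 24 of the 42 genes (33.8% of all genes).

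The array labelled prelamin A, which showed no excess of LMNA, was called lower than control for more of the genes. Of the 42 genes, 12 were called lower (4.02% of all genes tested) and 1 higher (6.29%). The sensors DDX60 and IFIH1 fell by 2.17 (SE 0.43, unadjusted p = 0.00547 in limma) and by 2.21 (SE 0.59, unadjusted p = 0.016). Among the marker genes, IFI44L fell by 2.65, IFI27 by 2.26, IFI44 by 1.78, IFI35 by 1.54 and XAF1 by 1.34, with unadjusted p between 0.00651 for IFI35 and 0.0492 for IFI44L in limma. The entry inhibitors IFITM1, IFITM2 and IFITM3 fell by 1.97, 1.23 and 1.05, ISG20 fell by 1.20 and PARP12 fell by 1.14. TRIM22 rose by 1.11 (SE 0.36, unadjusted p = 0.0306 in limma). The array labelled prelamin A lay outside the range of the controls for each of these 13 genes. No adjusted p was under 0.05, the smallest being 0.193. The median log2 difference of the 42 genes was -1.02 against the mean of the controls (-0.019 for all genes), -1.52 against control 1 alone and -0.48 against control 2 alone. Against control 1 alone 30 genes were over 2-fold lower (768 of all 12726 genes) and 0 higher (979). Against control 2 alone 9 were over 2-fold lower (938 of all genes) and 4 over 2-fold higher (1257), again with no test. The array labelled prelamin A lay below both controls for 31 of the 42 genes (38.8% of all genes).

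Most genes of the set were not called, whether or not they lay far apart between the controls. In the 5 comparisons that answer the design's questions, 16 genes of the set were called. Of the 20 genes over 2-fold apart between the controls, 6 were called in any of these comparisons. MX1 is an example of the others, with a log2 difference of -1.34 (SE 1.08, unadjusted p = 0.275 in limma) between prelamin A and control. Its prelamin A signal of 386 lay close to the 409 of control 2 and far below the 2415 of control 1. The gap between the controls is the only residual of the fit, so any gene with a wide gap is hard to call. The matching share over all genes was not computed, so the counts of 6 and 16 do not show that a wide gap lowered the number called.

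FTI was given to ask whether blocking farnesylation returned genes towards control. None of the 42 genes was called in either line: 0 were higher and 0 lower with FTI in progerin cells (0.503% and 0.951% of all genes), and 0 were higher and 0 lower with FTI in cells labelled prelamin A (1.19% and 1.62%), and limma gave an unadjusted p under 0.05 for 0 of the 42 in both. IFI44L was the only gene over 2-fold apart in progerin cells, at 34.4 without and 1.17 with FTI, both well under 100. The median log2 difference was -0.0082 in progerin cells, with 19 genes above 0 and 23 below, and 0.0016 in cells labelled prelamin A, with 21 above and 21 below. IFI27 had the smallest p, going from 9.36 to 67.2 with FTI in cells labelled prelamin A, a log2 difference of 1.71 (SE 0.75, unadjusted p = 0.0763 in limma). IFIT2 went from 162 to 369.6 (log2 difference 1.12, SE 0.66, unadjusted p = 0.155 in limma) and PARP14 from 164 to 86.3 (log2 difference -0.82, SE 0.37, unadjusted p = 0.0841 in limma). The difference between the lines in the response to FTI was called for 0 of the 42 genes in either direction (1.09% and 0.747% of all genes).

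The array labelled ZMPSTE24 was compared with the array labelled prelamin A. On the former, 41 of the 42 genes had a higher signal, ISG20 being the exception, and 22 were over 2-fold higher (3.84% of all genes) and 0 over 2-fold lower (4.63%). The median log2 difference was 1.01, against -0.022 for all genes tested. Of the 42 genes, 7 were called higher (2.18% of all genes) and 0 lower (2.85%). IFI27 rose by 4.46 (SE 0.75, unadjusted p = 0.0027 in limma), RSAD2 by 2.92 (SE 1.00, unadjusted p = 0.0381) and IFIT2 by 2.86 (SE 0.66, unadjusted p = 0.00923). For IFI27 and RSAD2 the signals on the array labelled prelamin A were 9.36 and 22.3, far below 100, so the sizes of these 2 differences depend on the 16 added to each signal. The sensors IFIH1 and DDX60 rose by 1.83 (SE 0.68, unadjusted p = 0.0479 in limma) and 1.66 (SE 0.50, unadjusted p = 0.0249). PARP12 and IFI44 rose by 1.47 (SE 0.39, unadjusted p = 0.0163 in limma) and 1.24 (SE 0.46, unadjusted p = 0.0465). The smallest adjusted p in the set was 0.653. Each side of this comparison is 1 array, with no excess of LMNA over the controls on the array labelled prelamin A and none of ZMPSTE24 between the pair.

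**Figure D2:**
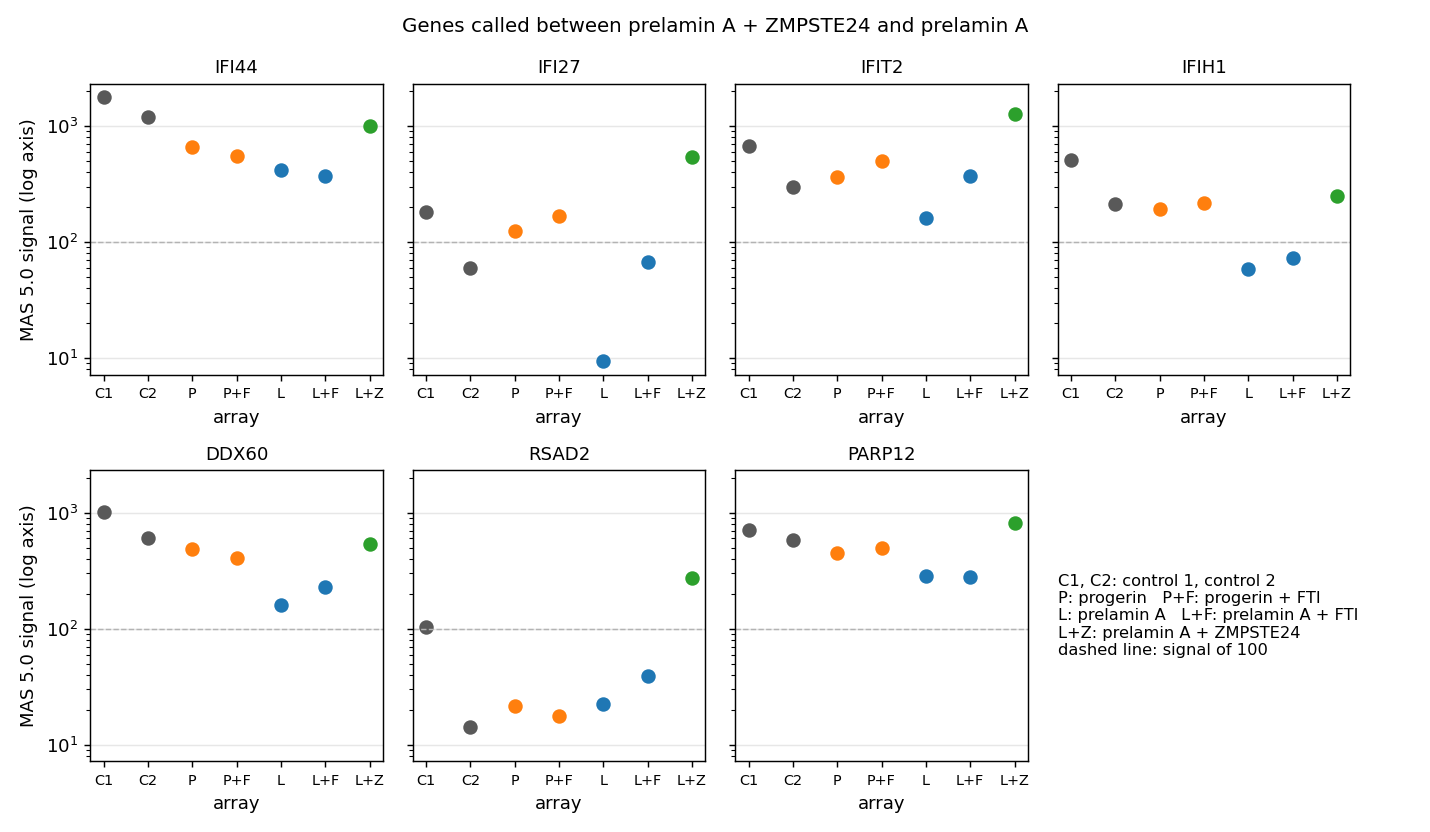
MAS 5.0 signal (vertical axis, log scale) of the 7 genes called higher on the array labelled prelamin A + ZMPSTE24 than on the array labelled prelamin A; each point is 1 array, with controls in grey, progerin in orange, prelamin A in blue and prelamin A + ZMPSTE24 in green. In every panel the green point is above both blue points, and only for IFI27, IFIT2, RSAD2 and PARP12 is it also above both controls.

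The medians of all 6 role groups were above 0. The median log2 difference between the array labelled ZMPSTE24 and the array labelled prelamin A was 1.08 for the 19 antiviral effectors, 0.92 for the ISG15 system, 0.77 for the sensors and transcription factors, 1.02 for the PARP family, 0.87 for antigen processing and GBP1, and 1.24 for the other induced genes. Beyond the called genes, IFIT1 had a log2 difference of 1.96 (SE 0.93), MX1 of 1.71 (SE 1.24) and IFIT3 of 1.65 (SE 0.85), none passing the call. The smallest differences were those of HERC5 (0.07), IFIT5 (0.13) and TRIM22 (0.17). The array labelled ZMPSTE24 was above both the array labelled prelamin A and the array labelled prelamin A with FTI for 40 of the 42 genes (33% of all genes).

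Many genes that stood high on this array also stood high on control 1. Of the 42 genes, 16 (38.1%) were over 2-fold higher both on control 1 than on control 2 and on the array labelled ZMPSTE24 than on the array labelled prelamin A, against 136 of all 12726 genes (1.07%). Those 136 genes comprise these 16 and 120 others. Across genes, the difference between the controls and the ZMPSTE24 difference correlated at Pearson's r = 0.225 over all genes and 0.471 over the 42. These differences share no array, and genes are not independent replicates, so no p is given.

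**Figure D3:**
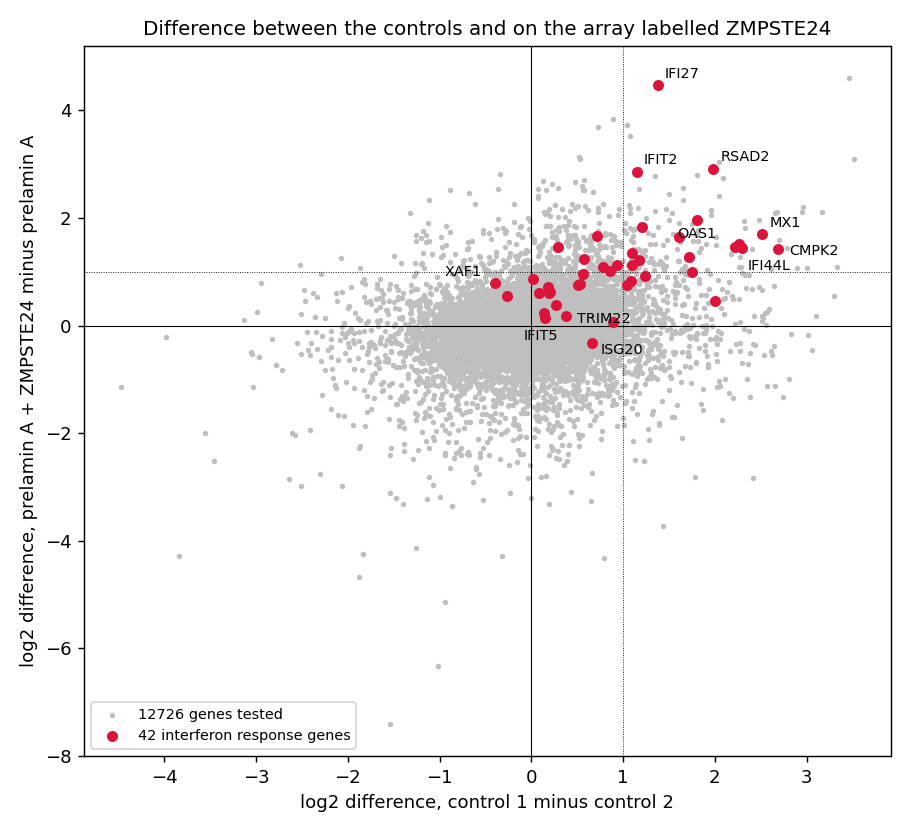
Each point is 1 gene: log2 difference of control 1 minus control 2 (horizontal) against log2 difference of the array labelled prelamin A + ZMPSTE24 minus the array labelled prelamin A (vertical), both on log2(signal + 16), with the 42 interferon response genes in red, the 12726 genes tested in grey and dotted lines at 2-fold. Of the 42 red points, 39 lie right of and above 0, and 16 lie beyond both dotted lines.

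Against the controls, the array labelled ZMPSTE24 was near their mean, with a median log2 difference of 0.089 over the 42 genes. It was -0.35 against control 1 alone, with 4 genes over 2-fold lower (552 of all 12726 genes) and 3 higher (732). Against control 2 alone it was 0.52, with 1 gene over 2-fold lower (1022 of all genes) and 15 higher (1129). In limma 3 genes were called higher than control (4.78% of all genes), namely IFI27 (2.21, SE 0.65), HERC5 (1.32, SE 0.48) and TRIM22 (1.28, SE 0.36), and 1 lower (3.6%), namely ISG20 (-1.53, SE 0.42). Against control, progerin with FTI had 6 genes called lower (2.57%) and 1 higher (3.13%), and prelamin A with FTI had 10 lower (4.37%) and 1 higher (5.32%). The gene called higher on both was TRIM22. The median log2 difference was -0.58 with progerin and FTI, -1.05 against control 1 alone (21 genes over 2-fold lower and 0 higher) and -0.15 against control 2 alone (5 lower and 4 higher). Over all genes, 615 were lower and 673 higher against control 1, and 561 and 741 against control 2. On the array labelled prelamin A with FTI the median was -0.75, -1.33 against control 1 alone (30 lower and 0 higher) and -0.32 against control 2 alone (10 lower and 1 higher). Over all genes, 682 were lower and 834 higher against control 1, and 1038 and 1174 against control 2. The sign of the difference from the mean of the controls changed when FTI was added for 4 of the 42 genes with progerin (IFIT2, OASL, PSMB8 and PSMB9) and for 2 with the label prelamin A (IRF1 and MX2). Signals lay below both controls for 23 of the 42 genes with progerin and FTI (34.5% of all genes), for 26 on the array labelled prelamin A with FTI (38.4%) and for 12 on the array labelled ZMPSTE24 (39.6%). They lay above both controls for 4 genes with progerin (34.1%), for 3 on the array labelled prelamin A (35.4%) and for 11 on the array labelled ZMPSTE24 (32.8%). All these comparisons share the 2 control arrays.

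The arrays labelled ZMPSTE24 and prelamin A with FTI were also set against each other, a comparison chosen after the values were seen. The array labelled ZMPSTE24 was higher than the array labelled prelamin A with FTI for 40 of the 42 genes, with a median log2 difference of 1.09 (-0.0073 for all genes). Of the 42 genes, 5 were called higher (1.77% of all genes) and 0 lower (2.16%): IFI27 by 2.75 (SE 0.75), IFITM1 by 1.98 (SE 0.64), PARP14 by 1.67 (SE 0.37), PARP12 by 1.48 (SE 0.39) and IFI44 by 1.39 (SE 0.46). This comparison shares the array labelled ZMPSTE24 with the one above.

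The arrays labelled prelamin A and progerin were compared directly for the difference between the lines. Of the 42 genes, 2 were called lower on the array labelled prelamin A (3.46% of all genes) and 0 higher (3.59%). IFI27 was lower by a log2 difference of -2.46 (SE 0.75, unadjusted p = 0.0252 in limma) and DDX60 by -1.50 (SE 0.50, unadjusted p = 0.0342). The median over the 42 genes was -0.45, and both arrays labelled prelamin A lay below both progerin arrays for 21 of the 42 (31.6% of all genes). CMPK2, MX2 and IFI6 differed the other way, by 1.02 (SE 1.32), 0.93 (SE 1.01) and 0.87 (SE 1.13), none of them called.

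Pooling arrays by state lets the spread between conditions enter the error. The states were control (2 arrays), lamin (progerin and prelamin A, 2 arrays) and treated (both FTI arrays and the array labelled ZMPSTE24, 3 arrays), and a gene was called at an adjusted p under 0.05 in limma over all genes. No gene of the set was called in any of the 3 comparisons, where 0.464% of all genes were called higher and 0.0943% lower in lamin against control, 0.849% and 0.236% in treated against control, and 0% in treated against lamin. At an unadjusted p under 0.05 in limma, 12 of the 42 genes differed between lamin and control (11.3% of all genes), 11 lower and 1 higher, 10 between treated and control (14.4%) and 0 between treated and lamin (1.99%). TRIM22 had the smallest adjusted p, 0.0568 in limma, with a log2 difference of 1.17 (SE 0.19) between treated and control arrays.

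Outside the set, the ligand genes IFNB1, IFNA1, IFNA2, IFNE, IFNK, IFNL1 and IFNG were below 100 on all 7 arrays. Among ligands, receptors and JAK-STAT signalling, 16 of 25 listed genes were tested and the median log2 difference was 0.20 between the controls and 0.025 between the array labelled ZMPSTE24 and the array labelled prelamin A. SOCS3, a feedback inhibitor of JAK kinases, read 837 and 595 in the controls, 629 and 592 with progerin, 1710.3 on the array labelled prelamin A, 689.7 on the array labelled prelamin A with FTI, and 1514 on the array labelled ZMPSTE24. It rose on the array labelled prelamin A by 1.26 (SE 0.37, unadjusted p = 0.0238 in limma) and fell by 1.29 (SE 0.43, unadjusted p = 0.035) when FTI was added. No other gene of that list was called in the 5 comparisons.

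**Figure D4:**
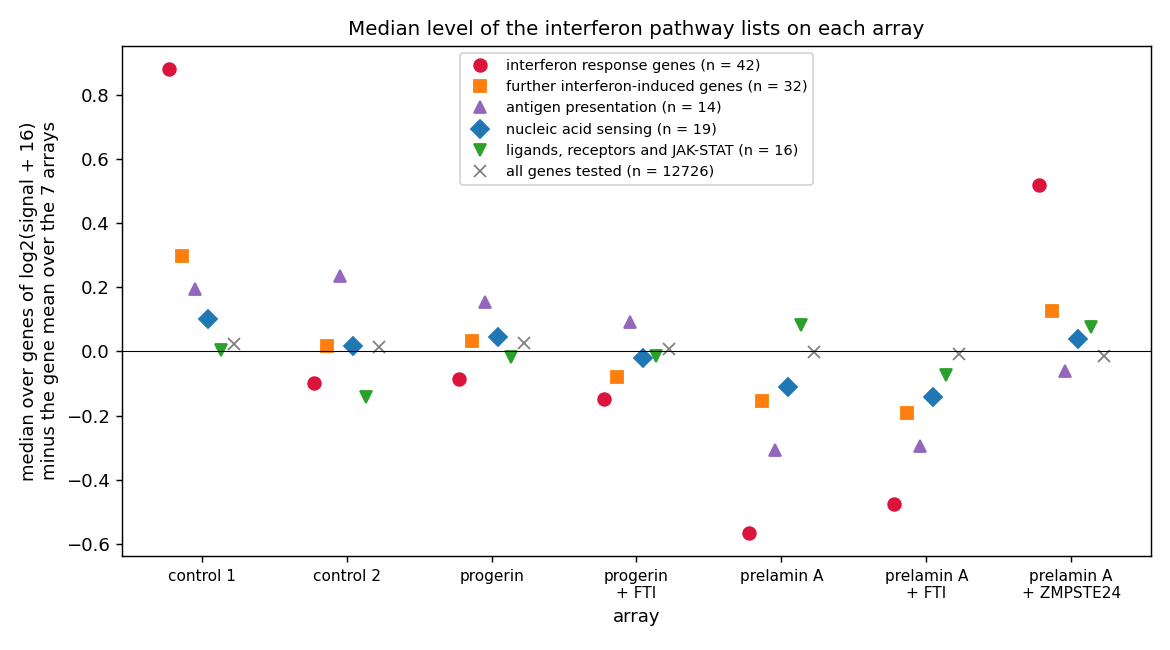
Median over the genes of each list of log2(signal + 16) minus the gene's mean over the 7 arrays (vertical) on each array (horizontal), for the interferon response genes, 4 other lists of the interferon pathway and all genes tested. The medians of the interferon response genes span -0.57 to 0.88 over the arrays, and those of each other list span a narrower range.

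Among 19 tested genes of nucleic acid sensing, the medians were 0.097 between the controls and 0.12 on the array labelled ZMPSTE24. IRF5, a factor downstream of Toll-like receptors, was called, with 27.9 on the array labelled prelamin A, 136 after FTI and 148 on the array labelled ZMPSTE24 (rises of 1.79 and 1.90, SE 0.65 each), and its controls spanned 47.7 to 123. Among 32 tested further interferon-induced genes, the medians were 0.30 between the controls and 0.25 on the array labelled ZMPSTE24. TRIM14, an adaptor of antiviral signalling, fell by 1.00 with progerin and by 2.01 on the array labelled prelamin A (SE 0.32 each, unadjusted p = 0.0297 and 0.00218 in limma), and its controls were close, at 675 and 682. NMI, the partner of IFI35, fell by 1.24 on the array labelled prelamin A (SE 0.33). The chemokine CXCL9 fell by 2.07 with progerin and by 1.21 on the array labelled ZMPSTE24 at signals of 111 or less. CD274, which encodes PD-L1, fell by 1.43 (SE 0.47) with FTI in progerin cells, from 88.3 to 22.8, both under 100. SECTM1 rose by 1.47 (SE 0.44) with progerin. IRF8 rose by 1.55 (SE 0.47) with FTI in cells labelled prelamin A, from 23.9 to 101, at the edge of the signal filter. CIITA, the master activator of MHC class II, rose by 1.28 with progerin, by 2.02 on the array labelled prelamin A and by 1.24 with FTI in progerin cells, with signals of 5.14 to 124.

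Among 14 tested genes of antigen presentation, the medians were 0.0029 between the controls and 0.11 on the array labelled ZMPSTE24. PSME1, a subunit of the proteasome activator, read 5457 and 4593 in the controls, 1875 on the array labelled prelamin A and 4125 on the array labelled ZMPSTE24. It fell by 1.41 on the array labelled prelamin A (SE 0.34, unadjusted p = 0.0106 in limma) and rose by 1.13 on the array labelled ZMPSTE24 (SE 0.39, unadjusted p = 0.0374). ERAP1, which trims peptides for MHC class I, fell by 1.40 on the array labelled prelamin A (SE 0.34). In each list and each of the 5 comparisons the 3 largest differences were also looked up. Those of genes never called belonged to 23 genes and had sizes of 0.29 to 1.90 on the log2 scale. They were SOCS1, STAT3, PTPN2, PTPN6, IL10RB and IFNGR2 among signalling genes, IKBKE, TRIM25, TICAM1, TLR4, TLR3, CGAS, IFI16 and SAMHD1 among sensors, APOL6, TNFSF10, RTP4 and WARS1 among further induced genes, and TAP2, NLRC5, ERAP2, TAPBP and TAPBPL in antigen presentation.

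For 17 of the 42 genes, 20 further probe sets of the same gene passed the signal filter and gave a check of direction. Their sign matched for 19 of 20 in control 1 against control 2 (ISG20 opposed), for 18 of 20 in the array labelled ZMPSTE24 against prelamin A (ISG20 and SAMD9L opposed), for 18 of 20 in prelamin A against control (RSAD2 and SAMD9L opposed) and for 14 of 20 in progerin against control (IFIT3, IFIT5, IRF1, OAS2, OASL and SAMD9L opposed). Sizes matched less well for called genes. With progerin they were -0.72 for IFI44, -0.60 and -0.30 for XAF1 and -0.91 for EPSTI1, all under 2-fold. With prelamin A they were -0.91 for IFI44, -1.12 and -0.59 for XAF1 and -2.64 for ISG20. For ZMPSTE24 against prelamin A they were 0.23 for IFI44, 2.09 for IFIT2 and 1.52 for RSAD2.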

How the data were processed

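RNA of each fibroblast line was hybridised by the authors to Affymetrix U133 Plus 2.0 arrays. The deposited values are MAS 5.0 signal intensities on a linear scale, which the authors scaled to a common target, with 54675 probe sets per array. Such signals have no sequencing depth, and their precision is limited by the 7 arrays. Of the probe sets, 62 array controls were left out, 41091 had 1 gene in the platform annotation, 1801 several and 11721 none. Gene IDs of 41037 probe sets matched RefSeq GRCh38.p14. The brightest probe set a gene was kept, genes reaching 100 on any array were tested on log2(signal + 16), and 6 conditions were fitted with limma 3.58.1 in R 4.3.3 (1 residual and 3.5 prior degrees of freedom), with a second fit of 3 states (4 residual and 2.6 prior). Only the 2 controls are replicated. The authors' methods describe transduction of 2 fibroblast lines, both kept as duplicate cultures, but the labels name 1 line and do not say which culture each control came from, so p-values measure only how far these arrays differ, and that spread may be technical. Benjamini-Hochberg adjustment ran over all genes. The authors' S-score test needs probe-level values and was not repeated. The scripts were tested on simulated data. The alternatives comprised quantile normalization or median centring, a pseudocount of 1 or 64, other signal filters, the mean over probe sets, an intensity trend, a p of 0.01 and leaving out each control. Genes given on every array were those called in any of the 5 main comparisons, over 2-fold apart between the controls, or among the 12 widest ranges. Genes of the other lists were named where called or among the 3 largest differences of their list. The members, lists and tests were chosen with earlier results of these data known.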

Additional observations from a re-analysis of the deposited data

Results flagged for a closer look

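For 2 genes the array labelled prelamin A differed from the progerin array by a test of the difference itself. IFI27 was lower on the array labelled prelamin A than with progerin by a log2 difference of -2.46 (unadjusted p = 0.0252 in limma), with signals of 9.36 and 124. DDX60 was lower by -1.50 (unadjusted p = 0.0342 in limma), with signals of 161 and 486. Calls for 2 of 42 genes lower and 0 higher stand beside 3.46% and 3.59% of all genes, so the number called lower is near the share of all genes. Neither call held at an unadjusted p under 0.01 in limma, and the IFI27 signal of 9.36 is far below 100. The array labelled prelamin A showed no excess of LMNA. Each value rests on 1 array a side, the smallest adjusted p of the set in this comparison was 0.653, and the cause was not tested.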

How the results depend on the processing

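Of the alternatives tried on the counts of genes called, 234 stayed within 1.5 times the reported count and 24 did not, and no call changed direction. The 234 include counts of 0 that stayed 0, as in most settings of the FTI comparisons and the fit of states. This tally therefore does not measure how stable the genes called are. At an unadjusted p under 0.01 in limma, the genes called lower became 0 of 4 with progerin and 3 of 12 on the array labelled prelamin A, those called higher on the array labelled ZMPSTE24 2 of 7, and those called between prelamin A and progerin 0 of 2. At that threshold the gene called higher on the array labelled prelamin A was lost (0 of 1) and 1 of 5 was left for ZMPSTE24 against FTI. Without control 1 the counts past 2-fold, with no test, were 4 lower and 2 higher with progerin and 9 lower and 4 higher on the array labelled prelamin A; without control 2 they were 21 and 0, and 30 and 0. An intensity trend in limma raised the genes called higher on the array labelled ZMPSTE24 to 12 and those against FTI to 11, while no filter on dim probe sets and a pseudocount of 1 gave 4 each. Without that filter 2 genes were called lower with progerin. A pseudocount of 1 added 1 gene called higher with FTI in cells labelled prelamin A and 1 lower with FTI in progerin cells. In the fit of states, treated against control gained 1 higher under the trend, under a mean signal of at least 100 and under a pseudocount of 64, and 1 lower under the mean over all probe sets and under a mean signal of at least 100; lamin against control gained 1 lower under the mean over all probe sets. With the line as a block, 0 of the 42 genes had an unadjusted p under 0.05 in limma for treated against lamin. Of 24 single calls, 5 held at p under 0.01 and between 17 and 23 under the settings of scaling, pseudocount, filter, trend and probe set. The causes were not tested. Signal near background limits RSAD2, IFI44L, OAS1, HERC5 and IFI27 in particular. The settings for ZMPSTE24 against FTI and for the difference between the lines were chosen after the values were seen. Beyond that block by line, no paired analysis was possible because the labels give replicate numbers to the 2 controls only.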
